A study of Homo sapiens with 16 samples.

Results

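The 6 empty-vector libraries of RWPE1 cells, out of 16 libraries in the series, were divided by their level of KRT5, the keratin that marks basal epithelial cells. Vector replicates 1, 2 and 5 had KRT5 above 17.1 on the deposited log2 scale (17.16, 17.18 and 17.17), and vector replicates 3, 4 and 6 had it below 17 (16.93, 16.93 and 16.91). The sets were thus selected on KRT5 in these same libraries, and no library lay between 16.93 and 17.16. Everything that separates them is given as a description, without a test. The working name of the division, 2 states among the vector libraries, was set against the whole profile first, and the profile did not bear it out: replicate 5 had the KRT5 level of replicates 1 and 2, but over all genes it lay nearer to replicates 4 and 6 and, after adjustment for GC content and length, to replicate 3. The sets are therefore called the high-KRT5 set and the low-KRT5 set.

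RWPE1 is an established, non-tumour line of human prostate epithelium. All libraries came from it, and their cells carried an altered pTRIPZ vector that was empty (6 libraries), or were engineered to overexpress a prostate homeobox factor in its wild-type form (6 libraries) or as the T164A mutant (4 libraries). Polyadenylated RNA was sequenced. The labels give no passage, harvest day or batch for any library and do not say whether the vector libraries were separate cultures, so a shared culture or day within a set cannot be told apart from the set.

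In stratified and glandular epithelia, basal cells rest on a basement membrane through laminins and the integrins that bind them, and make the keratins KRT5 and KRT14. Cells of a squamous epithelium that leave the basal layer build a cornified envelope from small proline-rich proteins, involucrin and S100 proteins, whereas luminal cells of the prostate make KRT8, KRT18 and secreted kallikreins such as KLK3. Immediate early genes such as EGR1 and FOS are transcribed within minutes of growth factor or stress signals, and ribosomal protein messages share translational control through a pyrimidine tract at their very first bases.

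Promoters of 6 genes that separated the sets are printed here, since they are members of groups that moved together: the 3 immediate early genes with the widest gap between the sets, 2 ribosomal protein genes, and KRT5, on which the libraries were divided. The sequences are RefSeq's, on GRCh38.p14, while the deposited values were made on GRCh37. EGR1, a zinc-finger transcription factor, starts within chr5:138465329-138465498 on the plus strand, FOSB, an AP-1 subunit, within chr19:45467846-45468015 on the plus strand, and DUSP6, a phosphatase of ERK kinases, within chr12:89352482-89352651 on the minus strand. KRT5 starts within chr12:52520375-52520544 on the minus strand. These 4 windows run from 150 bases before the start to 20 after it. Capitals mark TGACGT, the core of a cyclic AMP response element, and the CArG box bound by serum response factor, each on either strand.
EGR1: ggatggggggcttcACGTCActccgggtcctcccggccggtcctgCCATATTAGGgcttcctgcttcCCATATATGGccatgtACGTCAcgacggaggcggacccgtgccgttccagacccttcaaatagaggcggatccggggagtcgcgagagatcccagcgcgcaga
FOSB: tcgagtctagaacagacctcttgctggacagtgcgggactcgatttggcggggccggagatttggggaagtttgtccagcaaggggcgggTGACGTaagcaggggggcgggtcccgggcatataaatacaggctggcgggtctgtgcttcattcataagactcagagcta
DUSP6: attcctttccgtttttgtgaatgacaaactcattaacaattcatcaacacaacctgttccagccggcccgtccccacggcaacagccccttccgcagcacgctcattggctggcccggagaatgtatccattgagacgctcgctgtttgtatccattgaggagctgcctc
KRT5: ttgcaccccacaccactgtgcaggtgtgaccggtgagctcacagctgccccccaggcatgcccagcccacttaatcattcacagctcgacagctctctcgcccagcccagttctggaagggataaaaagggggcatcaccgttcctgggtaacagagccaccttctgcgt
EGR1 held 2 CArG boxes and 2 copies of TGACGT, FOSB held 1 copy of TGACGT, and neither motif was found in the windows of DUSP6 and KRT5. Over all 27305 promoters of the table, 0.82% held a CArG box and 6.26% held TGACGT in the same window. The ribosomal genes are RPLP1, a protein of the ribosomal stalk (chr15:69452778-69452837, plus strand), and RPL18, a protein of the large subunit (chr19:48619159-48619218, minus strand), from 40 bases before the start to 20 after it. Capitals mark a C followed by at least 4 C or T that reaches within 5 bases of the start, read on the gene's strand.
RPLP1: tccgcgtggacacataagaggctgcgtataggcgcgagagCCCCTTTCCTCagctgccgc
RPL18: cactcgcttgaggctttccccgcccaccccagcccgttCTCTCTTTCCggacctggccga
The run began at the first base of RPLP1 and 2 bases before the start of RPL18. A run placed in this way was present in 27.3% of all promoters in the table. These matches are letters in a window and were not tested as binding sites.

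Over the 11055 of 20166 symbols with a vector mean of at least 6, the libraries did not fall into the KRT5 sets. The first principal component, with 48.3% of the variance, placed replicates 1 and 2 at 0.58 and 0.56 and the other 4 libraries at -0.37 to -0.16. Replicate 5 was at -0.16, on the side of replicates 3, 4 and 6. The second component, with 26.0%, placed replicate 5 at -0.79 against 0.57 for replicate 3. The SD over genes of the difference between a pair of libraries told the same. It was 0.14 for replicates 1 and 2 and 0.13 to 0.17 within replicates 3, 4 and 6. For replicate 5 it was 0.17 to 0.23 against replicates 3, 4 and 6, and 0.23 and 0.24 against replicates 1 and 2. After adjustment for GC content and length of the transcript, replicate 5 was at 0.16 to 0.17 from replicates 3, 4 and 6, which were within 0.11 to 0.13 of each other, and at 0.21 from replicates 1 and 2. By other measures before the adjustment replicate 3 was not nearer to replicate 5 than replicates 1 and 2 were. The median absolute difference from replicate 5 was 0.15 in replicate 3, 0.14 in replicates 1 and 2, 0.11 in replicate 4 and 0.12 in replicate 6. Before the adjustment replicate 4 was about as far from replicate 3 (SD 0.17, median absolute difference 0.11) as from replicate 5 (0.17 and 0.11). The 6 libraries thus held a close pair, a trio that was closer after the adjustment, and replicate 5. The nearest neighbours of replicate 5 were replicates 4 and 6.

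**Figure D1:**
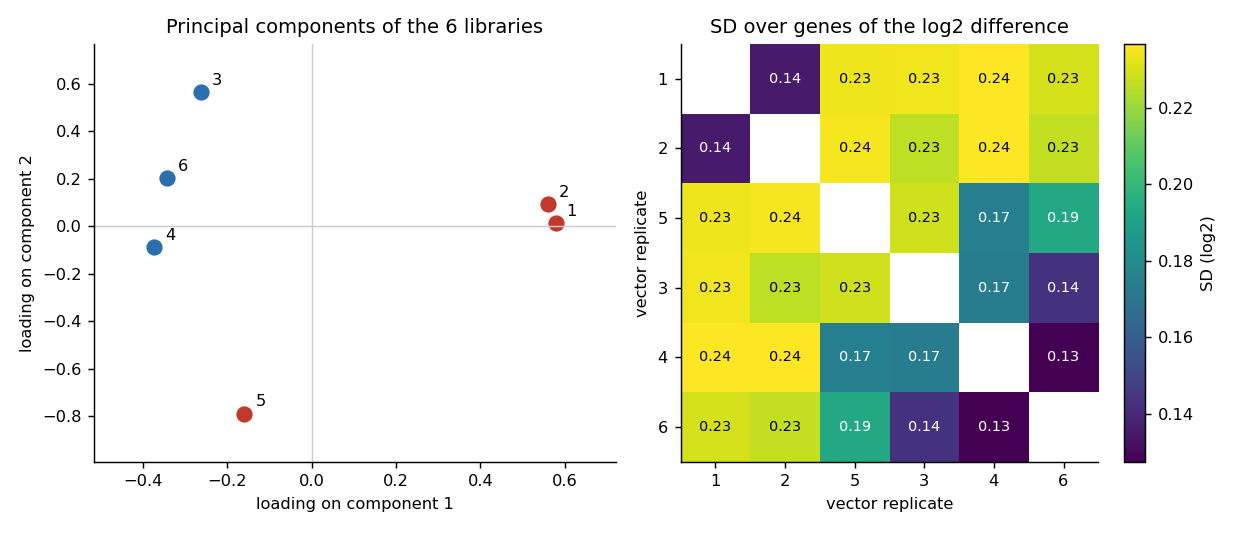
Left, loadings of the 6 vector libraries on principal components 1 and 2 over 11055 genes (red, high KRT5; blue, low KRT5; numbers, vector replicate). Right, SD over genes of the log2 difference between each pair of libraries. Replicates 1 and 2 differ by 0.14. Replicate 5 is nearest to replicate 4 (0.17), which is about as far from replicate 3 (0.17).

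Depth did not separate the sets. Estimated reads were 15100000, 14700000 and 12600000 in replicates 1, 2 and 5 and 13300000, 16900000 and 16600000 in replicates 3, 4 and 6, and KRT5 alone took 0.948%, 0.963% and 0.951% against 0.826%, 0.827% and 0.821% of them. Estimated reads of 1087 abundant genes differed between every pair by more than sampling noise, with a chi-square per degree of freedom of 3.69 for replicates 1 and 2 and 6.57 to 60.9 for the other pairs. It was 55.7 for replicate 5 with replicate 3, 49.1 and 50.8 with replicates 1 and 2, and 36.6 and 45.7 with replicates 4 and 6. The spread between libraries may be technical. GC content did vary among the libraries. Across genes, which are not independent replicates, the deviation from the gene's vector mean had a Spearman's rho with the transcript's GC content of 0.60 in replicate 5, 0.35 in replicate 4 and -0.54 in replicate 3, against -0.20 to -0.12 in replicates 1, 2 and 6. Replicate 5 also had a rho of -0.32 with transcript length. Its part in each result was not tested, and counts adjusted for GC content and length are given for the main lists. Of 80 list counts, 36 moved by over 1.5 times with this adjustment.

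**Figure D2:**
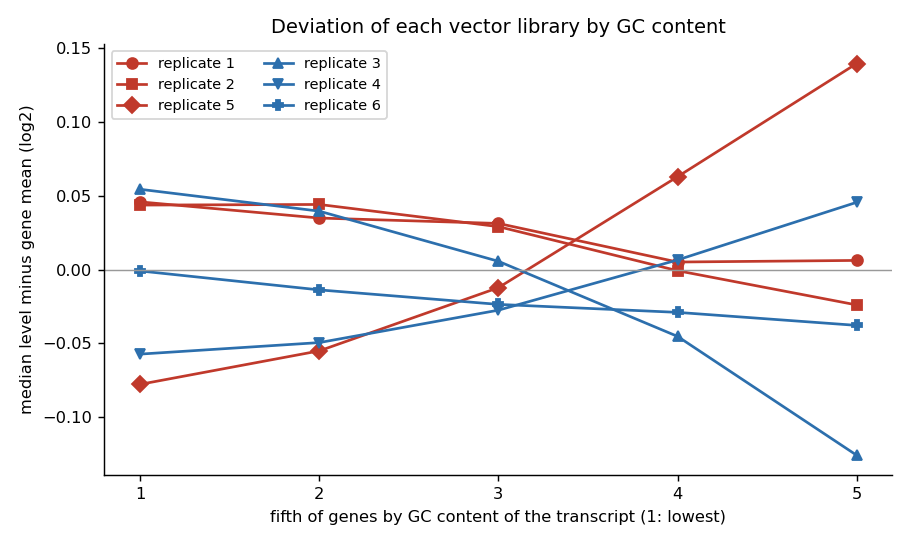
Median deviation of each vector library from the gene's mean over the 6 libraries (log2), in 5 equal bins of 10409 genes by GC content of the transcript (red, high KRT5; blue, low KRT5). Replicates 3 and 5 run in opposite directions, reaching -0.13 and 0.14 in the bin with most GC.

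In all, 1857 genes (16.8% of those at the minimum) were higher in every library of the high-KRT5 set than in any of the low-KRT5 set, and 1011 genes (9.15%) were lower in every one. The differences were small. The median difference of the set means was 0.20 among the former and -0.18 among the latter, beside 0.03 over all genes, whose central 95% ran from -0.31 to 0.35. A difference of at least 0.5 was reached by 56 and 32 of them, and of at least 1 by 3 and 1. KRT5 itself differed by 0.25 (1.19-fold; SD 0.01 in each set, n = 3). Under quantile normalization this KRT5 difference is 0, since KRT5 was the highest gene of every vector library and the method gives the highest gene the same value in each. The balance of the directions depended on the scaling: after quantile normalization 1376 genes were higher in the high-KRT5 set and 1419 in the low-KRT5 set, and with the libraries set to the same median 1377 and 1431. The higher genes were richer in GC (median 54.9%, against 48.5% over all genes) and shorter (median 2814 bases against 3540), and the lower genes were at 46.8% and 3823 bases. After adjustment for GC content and length, 1648 genes (15.8% of 10409) were higher and 1580 (15.2%) lower. Of the genes that separated before it, 1257 of 1778 higher and 798 of 919 lower ones also separated after it. KRT5 then stood at 17.16, 17.19 and 17.09 against 16.99, 16.91 and 16.95.

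Without replicate 5 the counts rose to 3490 (31.6%) and 2013 (18.2%). Among those genes replicate 5 was at or beyond the level of replicates 1 and 2 in 31.2% and 26.1%, between the 2 levels in 22.0% and 24.1%, and at or beyond the level of replicates 3, 4 and 6 in 46.8% and 49.8%. The genes separating the KRT5 sets are therefore those in which replicate 5 did not reach replicates 3, 4 and 6, and the gene groups below are given with the place of replicate 5.

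The basal program was higher with KRT5, by amounts close to that of KRT5. Of 26 basal markers at the minimum, 14 were higher in the high-KRT5 set and 1, the desmosomal cadherin DSC3, was lower. The shares of all genes were 16.8% and 9.15%. The 14 include KRT5, on which the sets were divided. The median difference was 0.21 in the list, KRT5 included, and 0.03 over all genes. KRT14, the partner of KRT5 in the basal filament, was at 14.60, 14.63 and 14.77 in replicates 1, 2 and 5 and at 14.35, 14.42 and 14.39 in replicates 3, 4 and 6. KRT17 was at 14.80, 14.77 and 14.77 against 14.37, 14.52 and 14.42, and KRT15 was at 11.95, 12.02 and 12.03 against 11.83, 11.91 and 11.89. In these keratins replicate 5 was level with or above replicates 1 and 2. DLK2, a non-canonical NOTCH ligand of basal cells, showed the widest difference of the list (7.97, 7.81 and 7.71 against 7.24, 7.42 and 7.07). TP63, the master regulator of basal identity, overlapped between the sets (12.52, 12.54 and 12.40 against 12.47, 12.38 and 12.40). After adjustment for GC content and length TP63 did separate them, by 0.06. The laminin receptor subunit ITGA6 also overlapped between the deposited sets (14.35, 14.34 and 14.29 against 14.36, 14.27 and 14.32). After adjustment for GC content and length 15 of the 26, again with KRT5, were higher, beside 15.8% of all genes.

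Adhesion to the basement membrane followed in part. Of 31 integrin, laminin and adhesion genes 13 (41.9%) were higher and none lower, beside 16.8% and 9.15% of all genes. With the adjustment for GC content and length 14 were higher and none lower, beside 15.8% and 15.2% of all genes. Without replicate 5 it was 22 higher and 2 lower, beside 31.6% and 18.2%. LAMB3, a chain of the basement membrane laminin, was at 13.73, 13.71 and 13.81 against 13.44, 13.54 and 13.49, and its receptor subunit ITGB4 at 13.91, 13.89 and 14.02 against 13.55, 13.77 and 13.70. LAMA3, another chain of the same laminin, instead was high only in replicates 1 and 2 (11.84 and 11.87), with replicate 5 at 11.61 among replicates 3, 4 and 6 (11.62, 11.63 and 11.56). The fibronectin receptor subunit ITGB1 had the same arrangement (12.48 and 12.498, then 12.14 in replicate 5, and 12.26, 12.05 and 12.15). Chains of 1 protein complex thus differed in where replicate 5 lay. COL17A1, the hemidesmosomal collagen, had replicate 5 between the others (14.25 and 14.25, 14.01, and 13.78, 13.87 and 13.85).

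**Figure D3:**
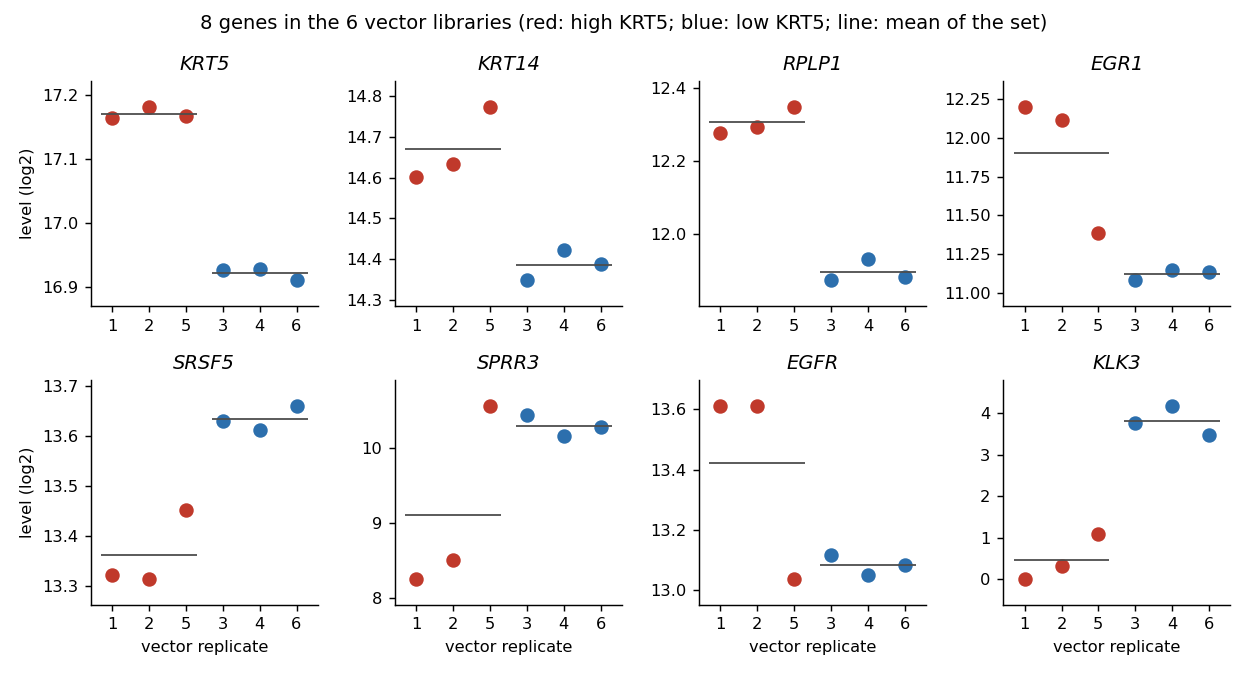
Deposited log2 levels of 8 genes in the 6 vector libraries (red, replicates 1, 2 and 5 with high KRT5; blue, replicates 3, 4 and 6; lines, set means; each axis has its own range and does not start at 0). Replicate 5 sits with replicates 1 and 2 in KRT5, KRT14 and RPLP1, lower and nearer to replicates 3, 4 and 6 in EGR1, and with replicates 3, 4 and 6 in SPRR3 and EGFR. KLK3 lies near or below the floor of 3 estimated reads in replicates 1, 2 and 5.

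Among the lists described, ribosomal proteins were the most uniform group. Of 54 cytosolic ribosomal protein genes 41 were higher in the high-KRT5 set and none lower, beside 16.8% and 9.15% of all genes. The median difference was 0.21, and the difference was positive in all 54. RPLP1 was at 12.28, 12.29 and 12.35 against 11.87, 11.93 and 11.88, a difference of 0.41 (SD 0.04 and 0.03, n = 3 each). RPL18 was at 12.51, 12.49 and 12.55 against 12.17, 12.20 and 12.08. Their promoters are the 2 shown above with a pyrimidine run at the start. These messages are short (median 1170 bases for the list), and length and GC content also moved with the libraries. After adjustment 35 of the 54 were higher and none lower, beside 15.8% and 15.2% of all genes. Factors that build ribosomes were higher less uniformly, with 11 of 33 (33.3%) higher and 2 lower. After the adjustment 7 of the 33 were higher and 3 lower, beside the same 15.8% and 15.2% of all genes. Among these factors, the nucleolar methyltransferase FBL was at 10.14, 10.14 and 10.04 against 9.81, 9.80 and 9.83. MYC, which drives their transcription, was at 12.18, 12.14 and 11.88 against 11.63, 11.75 and 11.68.

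Genes of energy metabolism were also higher. Of 28 genes of glycolysis and the hypoxia response 14 were higher and 3 lower, beside 16.8% and 9.15% of all genes. The glycolytic enzyme GAPDH was at 13.58, 13.56 and 13.47 against 13.15, 13.16 and 13.12, and ENO1 was at 13.26, 13.25 and 13.20 against 12.95, 12.90 and 12.89. Subunits of oxidative phosphorylation were higher in 20 of 44 cases and lower in 1. COX8A, a subunit of cytochrome c oxidase, was at 9.04, 9.04 and 9.11 against 8.71, 8.64 and 8.68. These lists depended more on the adjustment for GC content and length than the basal list: 8 of 27 and 11 of 35 members with a GC value were then higher and 5 and 2 lower, beside 15.8% and 15.2% of all genes. The members without a GC value could not be counted.

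Amino acid supply and antioxidant defence showed the same direction. In the ATF4 and amino acid list 17 of 37 genes were higher and none lower, beside 16.8% and 9.15% of all genes. Among the 17 were the leucine transporter SLC7A5 (16.41, 16.34 and 16.20 against 15.81, 15.94 and 15.89) and the serine synthesis enzyme PHGDH (12.72, 12.73 and 12.79 against 12.52, 12.55 and 12.503). Of 28 NRF2 and antioxidant genes 12 were higher and none lower, beside the same shares of all genes. The ferritin light chain FTL was at 11.52, 11.44 and 11.57 against 11.09, 11.02 and 11.001, and the metallothionein MT1E at 8.29, 8.17 and 8.21 against 7.75, 7.74 and 7.59. These 4 genes were named from the members whose sets did not overlap. Adjusted for GC content and length, 12 of the 37 were higher and 2 lower, and of the 28, 10 were higher and none lower. The shares of all genes were then 15.8% and 15.2%.

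**Figure D4:**
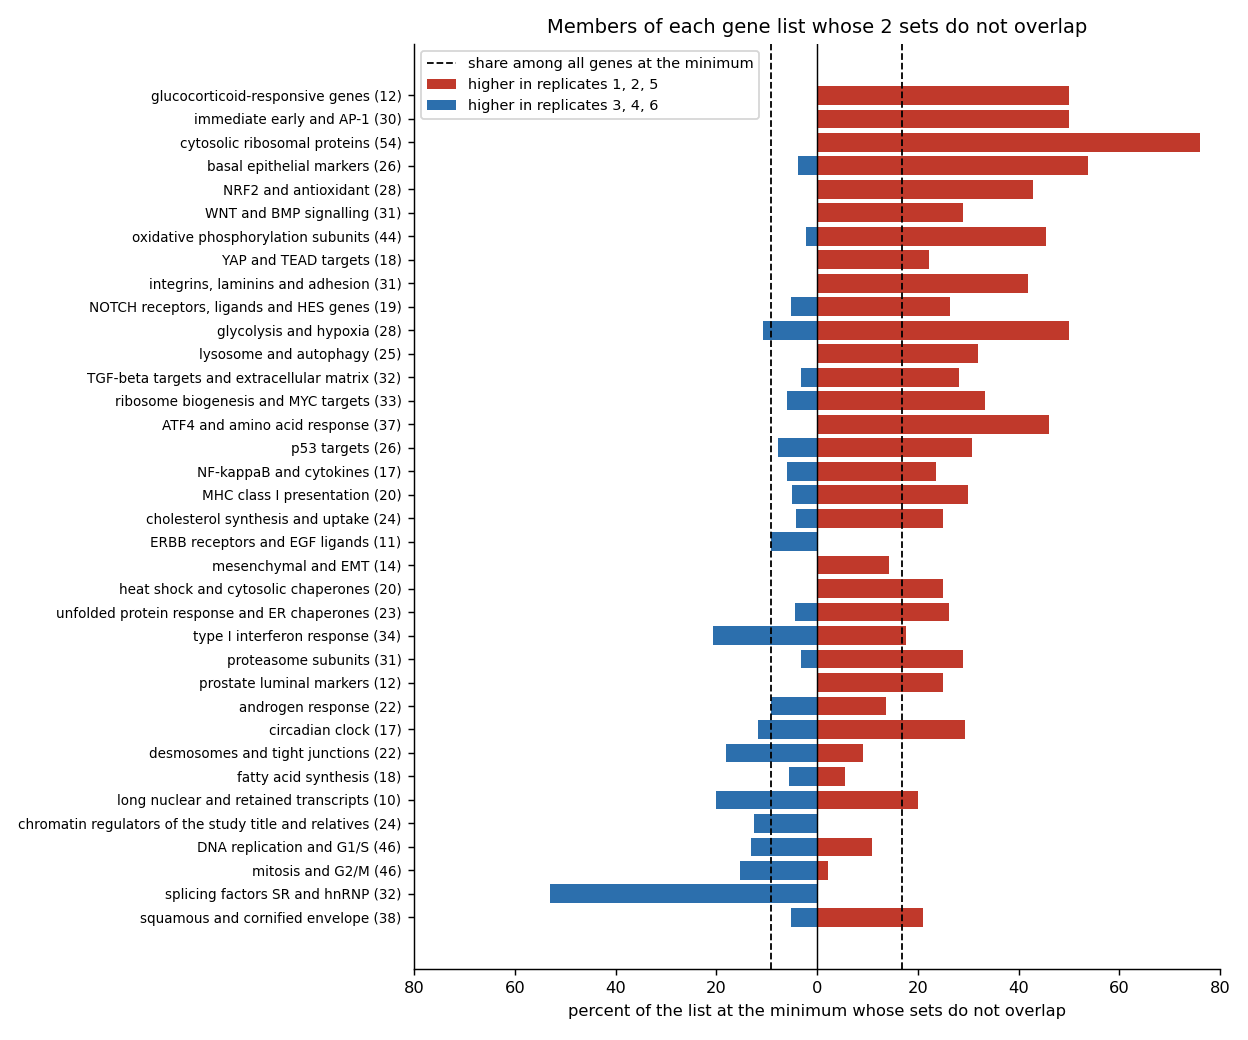
Percent of the members at the minimum (their number in parentheses) of each gene list with at least 10 such members that were higher in every library of the high-KRT5 set (red, to the right) or of the low-KRT5 set (blue, to the left). Dashed lines give the same shares over all genes, 16.8% and 9.15%; ribosomal proteins reach 75.9% to the right and splicing factors 53.1% to the left.

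Immediate early genes were graded across the libraries. Of 30 immediate early and AP-1 genes 15 were higher in the high-KRT5 set and none lower, beside 16.8% and 9.15% of all genes. The median difference of the list was 0.26. EGR1 was at 12.20 and 12.12 in replicates 1 and 2, at 11.39 in replicate 5 and at 11.08, 11.15 and 11.14 in replicates 3, 4 and 6, a difference of 0.78 between the set means (SD 0.45 and 0.04). The AP-1 subunit FOS was at 9.94 and 9.87, at 9.40, and at 9.15, 9.28 and 9.21. EGR3 was at 7.27 and 7.47, at 6.60, and at 6.43, 6.58 and 6.34. Replicate 5 thus cleared replicates 3, 4 and 6 in these genes but lay far below replicates 1 and 2. In a second group it did not clear them: KLF6 was at 10.52 and 10.53, at 9.71, and at 9.98, 9.79 and 9.77, and the AP-1 subunit FOSL1 at 7.88 and 7.89, at 7.17, and at 7.30, 7.15 and 7.23. JUNB, by contrast, was highest in replicate 5 (13.12 and 13.10, 13.26, and 12.68, 12.97 and 12.86). Without replicate 5, 24 of the 30 were higher and 1, the regulator IER5, lower, beside 31.6% and 18.2% of all genes. Of the 24, replicate 5 was with replicates 1 and 2 in 3, in between in 12 and with replicates 3, 4 and 6 in 9. Over all 3490 such genes the shares were 31.2%, 22.0% and 46.8%.

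Genes known to respond to glucocorticoids had the highest median of the lists with at least 10 members (0.34), and all 12 at the minimum had a positive difference. Of these 12, 6 separated the sets, beside 16.8% of all genes higher in the high-KRT5 set. After adjustment for GC content and length 3 did so, beside 15.8%. KLF9 was at 10.58 and 10.53 in replicates 1 and 2, at 9.70 in replicate 5 and at 9.75, 9.76 and 9.82 in the rest. FKBP5, a co-chaperone of the glucocorticoid receptor, was at 11.69 and 11.68, at 11.01, and at 10.999, 11.10 and 10.998. PER1, a clock gene, had replicate 5 just above the trio (11.26 and 11.16, 10.77, and 10.46, 10.64 and 10.53). In 2 others replicate 5 was the highest: MT1X (9.91 and 9.96, 9.98, and 9.68, 9.63 and 9.63) and SCNN1A (11.99 and 11.97, 12.01, and 11.85, 11.89 and 11.87). Without replicate 5, 11 of the 12 were higher in replicates 1 and 2, beside 31.6% of all genes. Of the 11, replicate 5 was with replicates 1 and 2 in 3, in between in 3 and with replicates 3, 4 and 6 in 5. That is near the shares over all 3490 such genes, 31.2%, 22.0% and 46.8%. In targets of YAP and TEAD, which report on cell density and tension, replicate 5 was more often with replicates 3, 4 and 6. Of 18 at the minimum, 4 (22.2%) were higher in the high-KRT5 set and none lower, beside 16.8% and 9.15% of all genes. Without replicate 5 it was 16 of 18, beside 31.6% of all genes. Replicate 5 lay with replicates 3, 4 and 6 in 12 of these, against 46.8% of all 3490 such genes. The receptor kinase AXL was at 9.89 and 9.76, at 9.33, and at 9.28, 9.35 and 9.25. EGFR, the receptor for epidermal growth factor, was at 13.61 in both replicates 1 and 2, at 13.04 in replicate 5 and at 13.12, 13.05 and 13.08 in the others.

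The squamous list as a whole did not follow the KRT5 sets. Of 38 genes of squamous differentiation and the cornified envelope, 8 (21.1%) were higher and 2 (5.26%) lower in the high-KRT5 set, beside 16.8% and 9.15% of all genes. Without replicate 5, 23 were lower and 11 higher in replicates 1 and 2, beside 18.2% and 31.6% of all genes. Replicate 5 was at or above the level of replicates 3, 4 and 6 in 21 of the 23, against 49.8% of all 2013 lower genes. SPRR3, a small proline-rich protein of the cornified envelope, was at 8.26 and 8.51 in replicates 1 and 2, at 10.57 in replicate 5 and at 10.44, 10.16 and 10.28 in replicates 3, 4 and 6. The mean of replicates 1 and 2 lay 1.91 below that of replicates 3, 4 and 6, which is far wider than the KRT5 difference of 0.25. CRNN, or cornulin, was at 7.27 and 7.07, at 8.96, and at 8.80, 8.64 and 8.69. S100A8, a calcium-binding protein of stressed epithelium, was at 12.09 and 12.18, at 13.20, and at 13.19, 13.01 and 12.9998. IVL, or involucrin, was at 10.09 and 10.12, at 11.03, and at 10.77, 10.90 and 10.79. The suprabasal keratin KRT6B was at 9.98 and 9.87, at 11.07, and at 10.78, 10.87 and 10.80. In all 5 of these genes replicate 5 was the highest of the 6 libraries. That held for 27 of the 38 (71.1%), against 23.2% of all genes, and for 24 of the 38 after adjustment for GC content and length. Reads of near-identical SPRR2 and KRT6 genes can be shared, so those values are uncertain.

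Not all squamous genes took this course. The early differentiation keratins KRT1 (14.29, 14.35 and 14.40 against 14.27, 14.28 and 14.25) and KRT4 (12.17, 12.17 and 12.21 against 12.08, 12.03 and 12.01) followed the KRT5 sets, by 0.08 and 0.14. But KRT1 differed by -0.02 after quantile normalization, and it did not separate the sets after adjustment for GC content and length. KRTDAP, a keratinocyte differentiation peptide, was at 8.90, 8.78 and 8.52 against 8.15, 8.12 and 8.12, and the crosslinking enzyme TGM1 at 11.85, 11.86 and 11.80 against 11.52, 11.62 and 11.54. KRTDAP and TGM1 were thus highest in replicates 1 and 2, where SPRR3 and CRNN were lowest.

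**Figure D5:**
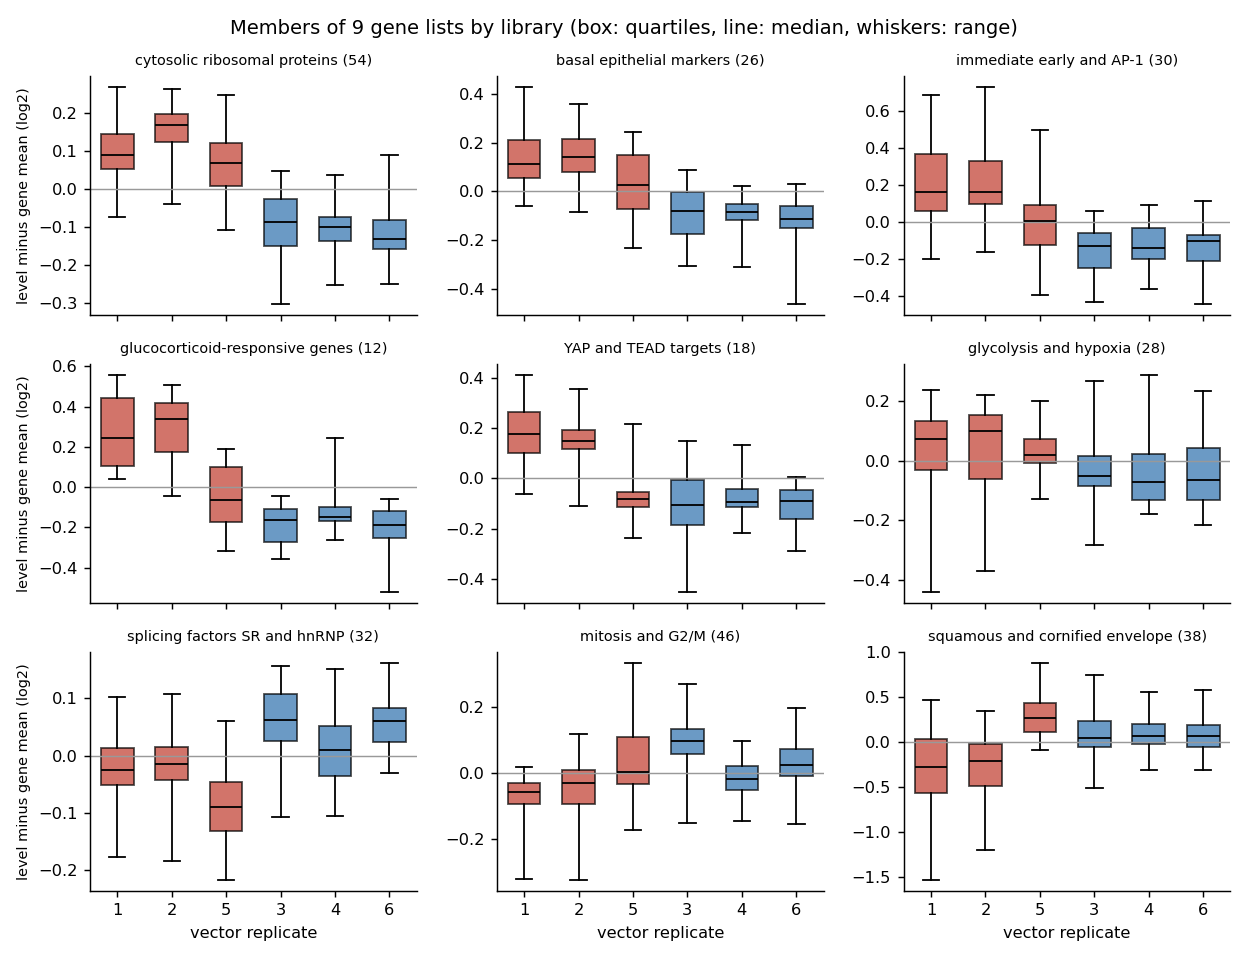
Level minus the gene's mean over the 6 vector libraries (log2) for the members of 9 gene lists (number of genes in parentheses; red, high KRT5; blue, low KRT5; box, quartiles; line, median; whiskers, range; axes differ between panels). Ribosomal proteins have positive medians in replicates 1, 2 and 5, YAP and TEAD targets only in replicates 1 and 2, and the squamous list is lowest in replicates 1 and 2 and highest in replicate 5.

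The largest single differences in the high-KRT5 set were mostly carried by replicates 1 and 2. CXCL14, a chemokine of epithelium, was at 10.19 and 10.17 in these, and at 8.28 in replicate 5 against 8.12, 8.20 and 8.24 in the low-KRT5 set, a gap of 0.04. It did not separate the sets after adjustment for GC content and length. KRT8, a luminal keratin, was at 10.41 and 10.29, at 9.43, and at 8.90, 9.20 and 9.07, and its partner KRT18 at 9.46 and 9.47, at 9.03, and at 8.93, 8.84 and 8.80. KRT18 did not separate the sets after adjustment for GC content and length. Of the 12 luminal markers at the minimum 3 were higher in the high-KRT5 set and none lower, beside 16.8% and 9.15% of all genes. Their median difference was 0.03, and the difference was above 0 in 6 and below 0 in 6. The imprinted noncoding RNA H19 was at 11.19 and 11.19, at 10.45, and at 9.87, 10.13 and 10.002, and IGFBP3, a binding protein of insulin-like growth factors, at 8.56 and 8.75, at 7.83, and at 7.73, 7.68 and 7.62. The aminopeptidase ANPEP was at 7.44, 7.28 and 6.73 against 5.73, 6.25 and 6.04. In 2 genes among the largest differences replicate 5 stood close to replicates 1 and 2: the interferon-induced membrane protein IFITM2 (7.52, 7.46 and 7.42 against 6.46, 6.65 and 6.82) and the transcription factor ASCL2 (7.17, 7.27 and 7.07 against 5.95, 6.75 and 6.45). In the ligand WNT10A replicate 5 lay in between, at 9.32, with replicates 1 and 2 at 9.71 and 9.64 and the others at 8.65, 9.06 and 8.85.

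Among the lists described, splicing genes had the largest share higher in the low-KRT5 set. Of 32 SR proteins, hnRNPs and related splicing genes 17 were higher there and none in the high-KRT5 set, beside 9.15% and 16.8% of all genes. The median difference of the list was -0.10. SRSF5, an SR splicing factor, was at 13.32, 13.31 and 13.45 in replicates 1, 2 and 5 and at 13.63, 13.61 and 13.66 in replicates 3, 4 and 6. HNRNPH1 was at 14.23, 14.25 and 14.15 against 14.45, 14.42 and 14.46. HNRNPA2B1 was at 14.18, 14.23 and 14.14 against 14.38, 14.30 and 14.34, and the splicing kinase CLK1 at 11.89, 11.84 and 11.91 against 12.13, 11.98 and 12.07. Replicate 5 was the lowest of the 6 libraries in 22 of the 32 genes (68.8%), against 20.8% of all genes, and in 14 (43.8%), against 17.1%, after adjustment for GC content and length. The list has a low GC content (median 42.1%), and GC-poor genes were low in replicate 5. After adjustment for GC content and length 19 of the 32 were higher in the low-KRT5 set and none in the other, beside 15.2% and 15.8% of all genes. NEAT1, the nuclear RNA that builds paraspeckles, was at 15.93, 15.95 and 16.05 against 16.33, 16.38 and 16.36, a difference of -0.38 (SD 0.06 and 0.03).

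Some of the largest differences in this direction were in genes close to the minimum of 6, such as TCN1 and CPT1B, but TCHH lay well above it. TCN1, a vitamin B12 binding protein, was at 4.94, 5.19 and 6.36 against 6.57, 6.77 and 6.58, with replicate 5 nearer to the low-KRT5 set. TCHH, or trichohyalin, a cornified protein of hair follicles, was at 8.34, 8.51 and 8.95 against 9.32, 9.27 and 9.18. The NOTCH target HEY1 was at 6.67, 6.43 and 6.82 against 7.11, 7.20 and 7.35, while the receptor NOTCH1 was lower in that set (14.02, 14.24 and 14.15, against 14.44, 14.38 and 14.42 in the high-KRT5 set). PPFIA4, a liprin, was at 6.85, 6.99 and 6.96 against 7.57, 7.55 and 7.70, with the sets clear of each other by 0.56. CPT1B, a carnitine palmitoyltransferase, was at 5.80, 5.72 and 5.97 against 6.37, 6.76 and 6.63.

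Some lists not described above also separated in the high direction alone. WNT and BMP signalling genes were higher in 9 of 31 cases and lower in none, with a median difference of 0.15. Lysosome and autophagy genes were higher in 8 of 25 and lower in none, with a median of 0.12. Adjusted for GC content and length, each of these lists had 8 genes higher and 1 lower. The lists given next differed by less, or in both directions. Of 34 interferon response genes 6 (17.6%) were higher and 7 (20.6%) lower, beside 16.8% and 9.15% of all genes. Of 46 replication genes 5 were higher and 6 lower, and the difference was below 0 in 30. The replication counts moved with the setting. After adjustment for GC content and length 3 were higher and 13 lower, beside 15.8% and 15.2% of all genes. With equal medians it was 3 and 10, beside 1377 and 1431 of all 11055 genes. Without replicate 5 it was 8 and 17, beside 31.6% and 18.2% of all genes. Mitosis genes were lower in 7 (15.2%) of 46 and higher in 1 (2.17%), beside 9.15% and 16.8% of all genes. The higher gene, CDC20, was at 9.33 and 9.32, at 9.51 in replicate 5, and at 9.29, 9.28 and 9.22. The median of the mitosis list was -0.07, with 38 of 46 differences below 0, and the proliferation marker MKI67 was at 12.92, 12.98 and 12.97 against 12.999, 13.03 and 13.02. Of 11 ERBB receptors and ligands none was higher and 1 (9.09%), ERBB3, lower, beside 16.8% and 9.15% of all genes. Of 22 desmosome and tight junction genes 2 (9.09%) were higher and 4 (18.2%) lower, beside the same shares. Androgen response genes were higher in 3 (13.6%) and lower in 2 (9.09%) of 22, near the shares of all genes. Among markers of other cells, 5 of 7 fibroblast genes were below 3 estimated reads in every vector library, as were the T cell genes CD3D and CD3E. The collagen gene COL1A1 was above it in all 6, and the summed fibroblast level overlapped between the sets (10.55 to 10.998 against 10.87 to 11.09). The summed level of the 6 fixed basal markers was 17.73 to 17.76 in the high-KRT5 set and 17.52 to 17.53 in the low-KRT5 set. KRT5, on which the sets were divided, is 1 of these markers and made up most of the sum. The separation of this sum therefore follows in large part from the division. The summed level of 8 luminal markers was 10.52 to 11.19 against 10.31 to 10.38. KRT8 and KRT18, already named among the genes that separated the sets, made up most of this sum. KLK3, also among the 8, went the other way at low levels. In the wider luminal list the median difference was 0.03, with 6 genes above 0 and 6 below. In bulk RNA a changed number of cells of a type and a changed amount of RNA per cell cannot be told apart.

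KLK3, the prostate-specific antigen and the second marker of the division, was above the floor of 3 estimated reads in replicates 3, 4 and 6 alone, at 3.76, 4.19 and 3.47. Replicates 1, 2 and 5 were at 0.01, 0.31 and 1.08, below their floors of 2.31, 2.33 and 2.48. KLK3 stood at 15.11 ± 0.39 (SD, n = 6) in the wild-type libraries and at -0.22 to 1.30 in the T164A libraries, so the 3 vector libraries lay 10.9 to 11.6 below the wild-type mean. Values this low carry scatter in the deposited table and are not exact counts. Other genes were therefore taken without using the vector libraries: those with a mean of at least 10 in the wild-type libraries and below the floor in every T164A library. They were KLK3, the related protease KLK2, the membrane protease HPN, the imprinted gene PEG3 and the Y-linked deubiquitinase USP9Y, whose reads can be shared with its X-linked copy. In replicates 1, 2 and 5 all 5 genes were below the floor. KLK2 was at 2.71 in replicate 3, above its floor of 2.40, and below the floor in replicates 4 and 6 (1.15 and -0.03). PEG3 was above the floor in replicates 3 and 4 (2.67 and 2.50) and below it in replicate 6 (1.29). USP9Y was above the floor in replicates 4 and 6 (2.28 and 2.52) and below it in replicate 3 (1.55). HPN was below the floor in all 6 (-1.13 to 1.47). In replicates 3, 4 and 6 these levels were 9.51 or more below the wild-type means for KLK2 (12.22) and 10.5 or more below for PEG3 (13.14). A gene chosen the other way, IRS4 (13.63 ± 0.04 in the T164A libraries, n = 4), was below the floor in every vector library (-1.91 to 2.11). Whether wild-type RNA or reads were carried into replicates 3, 4 and 6 was not tested.

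The wild-type and T164A libraries, which the KRT5 rule did not use, gave the level of KRT5 as 16.26 to 16.72 (median 16.50) and 15.29 to 15.63 (median 15.46), below both vector sets. Within each of these groups 1 library stood apart over the 2 gene sets. The median deviation from the group's own mean over the 1857 genes minus that over the 1011 genes was -0.13 in wild-type replicate 14 and 0.00 to 0.06 in the other 5, and -0.18 in T164A replicate 93 and 0.04 to 0.07 in the other 3. In the vector libraries, where the genes were chosen, it was 0.19, 0.19 and 0.16 against -0.21, -0.16 and -0.19. T164A replicate 93 also stood apart in GC content, with a rho of -0.87 between deviation and GC against 0.48 to 0.72 in the other 3. After adjustment for GC content and length its medians over the 2 gene sets were -0.01 and 0.01. In wild-type replicate 14 they were -0.03 and 0.06.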

How the data were processed

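Per the labels' protocols, poly-A selected RNA went through a TruSeq preparation and a HiSeq 2000. The values are on a log2 scale as the authors deposited them, in a single table of 21594 rows (0 per-sample columns were not used). Per the submitters' processing notes, GRCh37, DESeq, Cufflinks 2.0.2, TopHat2 2.0.4 and CASAVA 1.8.2 were used. Their roles and the transformation are not stated in the sources at hand. At high levels the back-transformed values lie on equal steps (tolerance 0.05), which gave estimated depths of 12300000 to 19200000 reads per library and a floor of 3 reads at 2.30 on average, for counting error only. Low values are not exact counts, so no count model was used.

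For 304 symbols on several rows the highest row was kept, leaving 20166 symbols. The 6 vector libraries were divided by the KRT5 thresholds 17.1 and 17, and genes with a vector mean of at least 6 were counted where the sets did not overlap. The members, the 40 gene lists and the tests were chosen with earlier results of these data known. Since the same libraries define the sets, no p-value was computed. Genes named are KRT5, KLK3 and 6 fixed keratin and regulator genes, the 12 largest differences in each direction, and up to 3 members of each list with the widest gap. Other list members, such as SPRR3, EGFR, FOS and KLF9, were named after their values were seen. GC content and length came from the longest protein-coding GENCODE transcript (10409 of 11055 symbols), and their adjustment, a quadratic fit of each library's deviations, was chosen after seeing the data. Counting was tested on simulated data. The software was python 3.11.15, numpy 2.4.6, pandas 2.3.3 and scipy 1.17.1. Alternatives were quantile normalization, equal medians, minimums of 8 and none, a gap of at least 0.1, all rows, and leaving out each library.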

Additional observations from a re-analysis of the deposited data

Results flagged for a closer look

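Of 140 groups of 4 to 10 values examined, 6 held a library far from the rest by Dixon's criterion at 95%, which chance alone meets in about 1 in 20 groups. CDC20, the activator of the anaphase-promoting complex, was at 9.51 in vector replicate 5 and at 9.22 to 9.33 in the other vector libraries. T164A replicate 93 stood apart in the rho between deviation and GC content (-0.87), in the rho with transcript length (0.28) and in the median deviation of the genes higher in the high-KRT5 set minus that of the genes higher in the low-KRT5 set (-0.18). Wild-type replicate 14 stood apart in the rho with length (0.31) and in the same difference of medians (-0.13).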

How the results depend on the processing

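The 1857 and 1011 genes became 2307 and 1661 with no minimum, 1572 and 799 at a minimum of 8, and 625 and 282 with a gap of at least 0.1. Leaving out each library in turn gave 2106 to 3490 and 1241 to 2013, with the highest counts without vector replicate 5. Adjustment for GC content and length, chosen after seeing the data, gave 1648 and 1580. Keeping all rows left both counts as they were. The causes of these shifts were not tested, beyond the fewer or more genes and libraries that an alternative admits. Among named genes only KRT1 changed direction, to -0.017 under quantile normalization. Of the counts per gene list, 52 of 80 moved by over 1.5 times without replicate 5. With equal medians 36 of 54 ribosomal protein genes and 12 of 26 basal markers were higher in the high-KRT5 set, beside 1377 of all 11055 genes. In the low-KRT5 set 21 of 32 splicing genes were then higher, beside 1431 of all 11055. No paired analysis was possible because the groups share no replicate numbers and no test was made.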
